A study of Mus musculus with 4 samples.

Results

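The genes described here are the cyclins of the G1 and S phases with the kinases they bind and 1 activating phosphatase. The set was chosen by name and holds 10 genes, *Ccnd1*, *Ccnd2*, *Ccnd3*, *Ccne1*, *Ccne2*, *Ccna2*, *Cdk2*, *Cdk4*, *Cdk6* and *Cdc25a*, out of 36499 genes and named transcripts on the array. They have 14 of its 55681 probes. All values come from neural stem/progenitor cells (NSPCs), cells of the embryonic brain that divide as floating neurospheres in medium with EGF and basic FGF. The cells came from mouse embryos of day 13.5 whose strain is given as Slc:ICR for both genotypes, wild-type and *Trp53*-/-, the latter lacking p53 and bred from heterozygous mice. Both genotypes were examined with 20 µM PJ34, an inhibitor of poly(ADP-ribose) polymerases, and without it. There were 2 arrays per genotype, and each array carried RNA of PJ34-treated cells labelled with Cy5 and RNA of untreated cells labelled with Cy3. Each array used RNA from a separate preparation (n = 2 per genotype), and no array had its dyes swapped. Within a genotype, the effect of PJ34 and a bias of a dye cannot be told apart.

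A cell enters the division cycle when D-type cyclins, which growth factors induce, bind CDK4 or CDK6. These kinases phosphorylate the retinoblastoma protein, which releases E2F factors, and E2F factors switch on the genes of cyclin E, cyclin A and DNA replication. Cyclin E and then cyclin A bind CDK2, which drives the entry into and the passage through S phase, and the phosphatase CDC25A removes the phosphates that hold CDK2 inactive. The p53 target p21, made from *Cdkn1a*, binds and inhibits these cyclin and kinase pairs.

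E2F factors act through promoters, so the promoters of members whose response is set between the genotypes below are shown first. A promoter window, from 250 bases before to 50 bases after a start site, was found for 6 of the 10 genes in RefSeq sequences (GRCm38.p6). No window was found for *Ccnd1*, *Ccnd2*, *Ccne2* and *Ccna2*, so the counts of windows do not cover them. The words searched on both strands were TTTCCCGC, TTTCGCGC, TTTGCCGC and TTTGGCGC, 4 forms of the E2F motif, and GGGCGG, the GC box, which does not overlap them in the windows shown. Capitals mark these words, on either strand. *Cdk2* lies on the minus strand, and its window is chr10:128705002-128705301. *Cdc25a* lies on the plus strand, and its window is chr9:109875329-109875628. *Ccne1* lies on the minus strand, and its window is chr7:38107441-38107740.
Cdk2: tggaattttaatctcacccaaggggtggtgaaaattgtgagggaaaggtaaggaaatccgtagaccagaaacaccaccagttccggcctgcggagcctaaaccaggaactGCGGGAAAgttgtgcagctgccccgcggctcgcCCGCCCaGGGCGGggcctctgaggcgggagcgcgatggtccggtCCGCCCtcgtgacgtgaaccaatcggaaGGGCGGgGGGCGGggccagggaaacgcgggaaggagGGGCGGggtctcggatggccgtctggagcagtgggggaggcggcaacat
Cdc25a: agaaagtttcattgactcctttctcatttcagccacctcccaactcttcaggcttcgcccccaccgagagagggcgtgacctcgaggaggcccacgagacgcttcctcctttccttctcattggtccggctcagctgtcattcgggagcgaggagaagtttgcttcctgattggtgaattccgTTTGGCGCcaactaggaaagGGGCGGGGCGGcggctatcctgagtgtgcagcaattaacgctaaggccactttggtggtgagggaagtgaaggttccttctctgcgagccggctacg
Ccne1: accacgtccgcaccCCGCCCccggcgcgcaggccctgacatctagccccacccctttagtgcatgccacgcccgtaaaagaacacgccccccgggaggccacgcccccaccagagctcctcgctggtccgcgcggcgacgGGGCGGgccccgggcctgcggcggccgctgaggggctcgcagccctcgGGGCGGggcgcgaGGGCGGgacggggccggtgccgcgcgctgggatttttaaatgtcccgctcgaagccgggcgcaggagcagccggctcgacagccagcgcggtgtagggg

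The *Cdk2* window holds GCGGGAAA, the reverse complement of TTTCCCGC, from base 111, and the *Cdc25a* window holds TTTGGCGC from base 184. These were 2 of the 7 windows of the set (*Ccnd3* has 2), while 2.26% of all 32851 windows hold 1 of the 4 words. The windows of *Ccne1*, *Cdk4*, *Cdk6* and *Ccnd3* hold none of them. GC boxes were found in 6 of the 7 windows, with 6 in *Cdk2*, 4 in *Ccne1*, 2 in *Cdc25a* and 0 in *Cdk6*, and in 35.7% of all windows. Of 2 further words searched on both strands, CCAAT was found in 3 of the 7 windows and in 37.4% of all, and TTTGAA, a core of the cell cycle homology region, in 0 of the 7 and in 17.9% of all. These are matches of letters and not sites shown to be bound.

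Of the 10 genes, 8 were bright enough to be tested. The probe of *Cdk6* was not well above background in either colour on any of the 4 arrays, with a raw control brightness between 32.9 and 39.7 beside a local background between 19 and 41. The probe of *Ccne2*, the second gene of cyclin E, was well above background in both colours on the array of wild-type replicate 1, with a raw control brightness of 129, and on no other array, where it lay between 45.0 and 47.8. No change is given for these 2 genes. Both colours of the other 12 probes were well above background on all 4 arrays, and no spot of the set was saturated. A gene with several probes was read from its brightest.

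The control signal of *Trp53* (normalized log2 intensity) was 8.28 and 8.51 on the wild-type arrays and 7.56 and 7.82 on the *Trp53*-/- arrays, well above background on all 4. On the array of *Trp53*-/- replicate 2 the Y-linked *Eif2s3y* and *Ddx3y* had log2 ratios of 4.22 and 3.12 and *Xist* had -1.39, unlike the other 3 arrays, so its treated and control cultures differed in these sex-linked transcripts as well as in PJ34, and the counts over the set and over the cell cycle lists in *Trp53*-/- NSPCs and in the difference are also given without it. Between 21515 and 24553 probes were well above background in the control colour and between 26099 and 27166 in the PJ34 colour, and the number of arrays limits the precision. As to cell types, 6 of 6 markers of neural stem/progenitor cells were above background in untreated cells on all 4 arrays. Of the markers of other cells, 4 of 5 neuronal, 3 of 4 astrocyte, 4 of 4 oligodendrocyte, 1 of 3 microglial, 1 of 3 endothelial and 0 of 3 fibroblast genes were, with *Stmn2*, *Aif1*, *Cx3cr1* and *Cdh5* above background on none.

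In wild-type NSPCs, *Ccna2*, *Ccnd3*, *Cdk2* and *Ccne1* were lower with PJ34 by loess normalization, by less than 2-fold. With median centring in its place no gene of the set was lower and 6 of 8 were higher. By that setting 92 of all 20233 genes were lower and 12082 higher. Median centring moved the median of all genes to 0.46 on the log2 scale, and against that median *Ccna2* lay at -0.44, *Cdk2* at -0.31, *Ccnd3*, *Ccne1* and *Cdc25a* between -0.058 and -0.070, and *Ccnd2*, *Cdk4* and *Ccnd1* above it at 0.23, 0.24 and 0.39. Unless another setting is named, ratios are given after loess on the log2 scale, PJ34 over control, so that a value below 0 is a lower level with PJ34. The 4 decreases passed limma's test at a *p* and Storey's *q* below 0.05 with no limit on the fold, 4 of 8 genes tested, and 11.2% of the 20233 genes tested on the array were lower by this rule. None of the 8 was higher, beside 13.5% of all genes. With the added limit of 2-fold that the methods of the study use, 0 of the 8 were called, beside 0.499% of all genes. The median log2 ratio of the 8 genes was -0.24 and that of all genes 0.029. The same 4 genes passed without the array of *Trp53*-/- replicate 2.

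**Figure D1:**
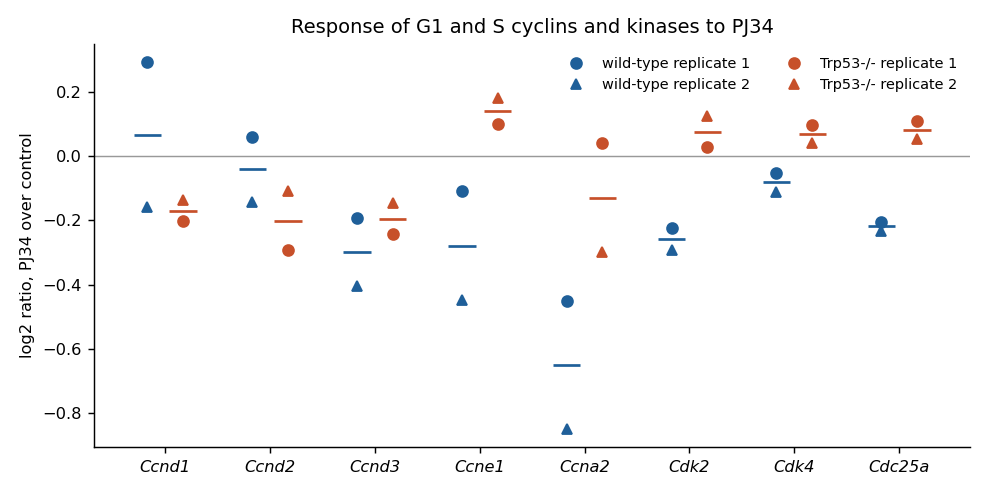
Log2 ratios of PJ34 over control after loess for the 8 genes tested, with 1 point per array (circles replicate 1, triangles replicate 2, wild-type blue, *Trp53*-/- red) and a bar at each mean. The lowest values are those of *Ccna2* in wild-type, -0.45 and -0.85, and for *Ccne1*, *Ccna2*, *Cdk2*, *Cdk4* and *Cdc25a* both wild-type points lie below both *Trp53*-/- points, while median centring would lift all values above 0 in the means of both genotypes.

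The largest of the decreases was that of *Ccna2*, the gene of cyclin A2, the partner of CDK2 in S phase and of CDK1 later. Its probe lies at chr3:36463978-36464037 of mm9. The log2 ratio was -0.45 and -0.85 on the wild-type arrays and 0.040 and -0.30 on the *Trp53*-/- arrays. Both wild-type values were lower than both *Trp53*-/- values. The wild-type mean was -0.65 ± 0.28 (SD, n = 2 arrays), 0.637 of the control level (standard error 0.12, *q* = 0.00238 from limma). It lay at the percentile 1.54 of all genes ranked from the lowest ratio. Without wild-type replicate 1 its value was -0.85 (*q* = 0.00137) and without wild-type replicate 2 it was -0.45 (*q* = 0.0414 from limma). In every count and *q* given without an array, the 1 array left of that genotype is assumed to vary like the 2 of the other genotype. Its mean in *Trp53*-/- NSPCs was -0.13 ± 0.24 (*q* = 0.244 from limma), and 0.040 without replicate 2.

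*Ccne1*, the gene of cyclin E1, which pairs with CDK2 at the entry into S phase, is read by 2 probes. The brighter one, of which the files place 24 bases at chr7:38882937-38882960 (mm9), gave -0.11 and -0.45 in wild-type and 0.099 and 0.18 in *Trp53*-/- NSPCs. Both wild-type values were lower than both *Trp53*-/- values, and replicate 2 of wild-type was the lowest. The wild-type mean was -0.28 ± 0.24 with *q* = 0.0465 from limma, with a value of -0.45 (*q* = 0.0328) without replicate 1 and -0.11 (*q* = 0.422) without replicate 2, again with 1 wild-type array left. The dimmer probe (chr7:38885574-38885633) gave -0.25 and -0.22 in wild-type and -0.12 and -0.16 in *Trp53*-/- NSPCs. The 2 probes thus differed in sign in *Trp53*-/- NSPCs, and the mean of both there was -0.0014.

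*Cdk2* (chr10:128135658-128135717 of mm9), the catalytic partner of cyclins E and A, gave -0.22 and -0.29 in wild-type and 0.029 and 0.12 in *Trp53*-/- NSPCs. The arrays of a genotype lay close together and the genotypes did not overlap. The wild-type mean was -0.26 ± 0.049 with *q* = 0.0380 from limma, and *Cdk2* did not pass when either wild-type array was left out. *Cdc25a* (chr9:109796331-109796390), the phosphatase that activates CDK2, had -0.21 and -0.23 in wild-type and 0.11 and 0.054 in *Trp53*-/- NSPCs. Its genotypes did not overlap either, but the wild-type mean of -0.22 ± 0.019 missed the threshold (*q* = 0.0604 from limma). *Cdk2* and *Cdc25a* are the genes whose windows hold an E2F word above. The genotypes of *Ccne1* and *Cdk4* did not overlap either, and their windows hold none, while *Ccna2* had no window. A link between the words and the response was not tested.

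*Cdk4*, the kinase of the D-type cyclins, is read by 3 probes, and the brightest gave -0.052 and -0.11 in wild-type and 0.097 and 0.041 in *Trp53*-/- NSPCs. The other probes gave means of -0.071 and -0.20 in wild-type and 0.088 and 0.021 in *Trp53*-/- NSPCs. The 3 probes had the same order of the genotypes, and the wild-type mean of the brightest, -0.08 ± 0.042, did not pass (*q* = 0.296 from limma).

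Of the 3 D-type cyclins, the entry point for growth factor signals, 1 passed as lower in wild-type NSPCs, and differences among the 3 were not tested. *Ccnd3* is read by 2 probes, and the brighter (chr17:47736579-47736638 of mm9) had -0.19 and -0.40 in wild-type and -0.24 and -0.15 in *Trp53*-/- NSPCs. The genotypes overlapped. Its wild-type mean of -0.30 ± 0.15 passed (*q* = 0.0282 from limma), but not when either wild-type array was left out, and its second probe gave 0.0018 and -0.47 on these arrays. *Ccnd1* had 0.29 and -0.16 in wild-type and -0.20 and -0.14 in *Trp53*-/- NSPCs, so the sign differed between the wild-type arrays. *Ccnd2* had 0.061 and -0.14 in wild-type and -0.29 and -0.11 in *Trp53*-/- NSPCs. Neither *Ccnd1* (mean 0.067, *q* = 0.375) nor *Ccnd2* (mean -0.040, *q* = 0.420) passed limma's test in wild-type.

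Without p53, 0 of the 8 genes passed in either direction by limma, beside 10.4% of all genes lower, 12.7% higher and 0.361% over 2-fold, and 0 had an unadjusted *p* below 0.05, beside 30.9% of all genes. The means lay between -0.20 for *Ccnd2* and 0.14 for *Ccne1*, and their median was -0.030 where that of all genes was 0.033. The 3 D-type cyclins had the lowest means after loess, -0.17 for *Ccnd1*, -0.20 for *Ccnd2* and -0.19 for *Ccnd3*, each below 0 on both arrays, though at 0.96, 0.85 and 0.79 with median centring. None of the 3 passed, with *q* between 0.0949 and 0.168 from limma. Median centring moved the median of all genes to 0.63 here, and by it all 8 genes were called higher and all 8 lay above that median. Of all 20233 genes, 13781 were called higher by it in *Trp53*-/- NSPCs. Without replicate 2, the count by loess was again 0 in both directions.

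The response was then compared between the genotypes by subtracting the mean of the *Trp53*-/- arrays from that of the wild-type arrays, so that a bias of a dye that is the same on all arrays cancels. By limma, 0 of 8 differences passed, beside 0.474% of all genes lower in wild-type, 1.29% higher and 0.479% over 2-fold. At an unadjusted *p* below 0.05, 4 of 8 were lower in wild-type, *Ccna2*, *Ccne1*, *Cdk2* and *Cdc25a*, beside 6.98% of all genes. *Ccna2* differed by -0.52 (95% confidence interval -0.89 to -0.15, *q* = 0.134 from limma) and *Ccne1* by -0.42 (-0.74 to -0.095, *q* = 0.160). The second probe of *Ccne1* differed by -0.089 (-0.37 to 0.19), and the mean of both by -0.25. *Cdk2* differed by -0.33 (-0.62 to -0.053, *q* = 0.187) and *Cdc25a* by -0.30 (-0.58 to -0.023, *q* = 0.225). Left out in turn, the arrays moved the difference of *Ccna2* from -0.72 without wild-type replicate 1, where it passed (*q* = 0.0474), to -0.32 without wild-type replicate 2 (*q* = 0.410), and it was -0.69 (*q* = 0.0680) without *Trp53*-/- replicate 2 and -0.35 (*q* = 0.381) without *Trp53*-/- replicate 1. The difference of *Ccne1* was -0.25 without wild-type replicate 2. Without *Trp53*-/- replicate 2, *Ccne1*, *Cdk2* and *Cdc25a* differed by -0.38, -0.29 and -0.33 and 0 of 8 genes passed. The differences of these 4 genes kept their sign with median centring, at -0.80, -0.66, -0.58 and -0.52, where the median of all genes was -0.14.

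The intervals of the other genes included 0, with -0.43 to 0.13 for *Cdk4*, -0.40 to 0.19 for *Ccnd3*, -0.15 to 0.47 for *Ccnd2* and -0.12 to 0.59 for *Ccnd1*. The cyclins E and A, *Ccnd3*, the kinases and *Cdc25a* thus lay on the lower side in wild-type and *Ccnd1* and *Ccnd2* on the higher, though the latter 2 turned to -0.11 and -0.16 with median centring. Both wild-type ratios lay below both *Trp53*-/- ratios for 5 of 8 genes, *Ccne1*, *Ccna2*, *Cdk2*, *Cdk4* and *Cdc25a*, beside 23.9% of all genes, and above them for 0 of 8, beside 21.3%. The median difference of the 8 genes was -0.23 and that of all genes -0.0068.

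**Figure D2:**
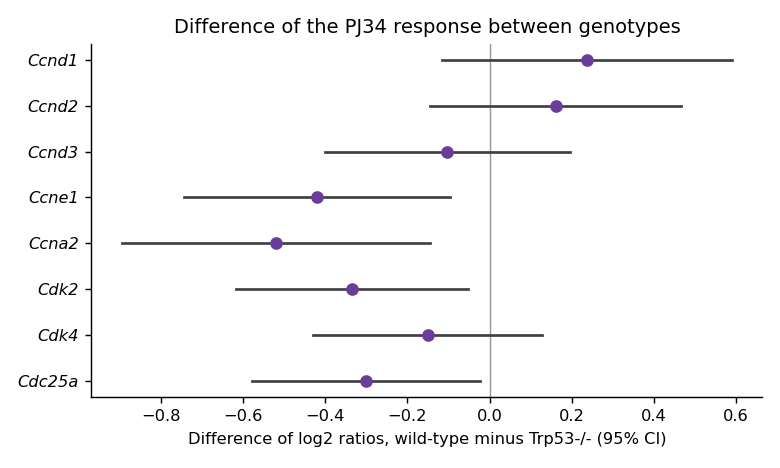
Difference of the log2 ratio of PJ34 over control, wild-type minus *Trp53*-/-, with the 95% confidence interval from limma, for the 8 genes tested (n = 2 arrays per genotype). The intervals of *Ccne1*, *Ccna2*, *Cdk2* and *Cdc25a* lie below 0 and the other 4 include it, and no difference passed at a *q* below 0.05.

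Untreated cells of the genotypes were compared through the control colour, as normalized log2 intensities. None of the 8 genes passed by limma, beside 5.13% of all 17252 genes tested lower, 5.06% higher and 4.81% over 2-fold. An unadjusted *p* below 0.05 was found for 3 of 8, beside 25.1% of all genes, and this count is not read as a result about the set. *Ccnd1* had a control level of 15.04 and 14.82 in wild-type and 15.44 and 15.65 in *Trp53*-/- NSPCs, 1.53-fold higher in the mean, a difference of 0.61 (95% confidence interval 0.16 to 1.07, *q* = 0.0641 from limma). *Ccnd2* had 14.03 and 13.70 against 14.57 and 14.31, 1.49-fold higher (0.57, interval 0.079 to 1.07, *q* = 0.0847 from limma). *Ccne1* had 12.31 and 12.34 against 11.91 and 11.87, a difference of -0.44 (interval -0.85 to -0.033, *q* = 0.0956 from limma). The replicates of *Ccne1* lay closer to each other than the genotypes did.

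*Ccnd3* had 12.91 and 13.22 in wild-type and 13.31 and 13.26 in *Trp53*-/- NSPCs, a difference of 0.22 with an interval of -0.23 to 0.68. For *Ccnd1*, *Ccnd2* and *Ccnd3* both *Trp53*-/- levels lay above both wild-type levels, 3 of 8 genes beside 28.8% of all genes, and for *Ccne1* below them, 1 of 8 beside 28.5%. Neither count is read as a result about the set. The second probe of *Ccnd3* overlapped, with 11.30 and 12.01 in wild-type and 11.68 and 11.97 in *Trp53*-/- NSPCs. *Cdk2* had 8.91 and 7.68 in wild-type and 8.48 and 8.44 in *Trp53*-/- NSPCs, so the wild-type arrays spanned the others, and the difference was 0.78 without wild-type replicate 1 and -0.45 without replicate 2. By their brightest probes *Ccna2*, *Cdc25a* and *Cdk4* overlapped, with differences of -0.041, -0.049 and -0.13. A dimmer probe of *Cdk4* did not overlap, with 13.09 and 13.39 in wild-type and 12.94 and 12.92 in *Trp53*-/- NSPCs. Its other dimmer probe overlapped, with 13.84 and 14.36 against 13.85 and 13.88. Each sample was on a slide of its own, so slide and sample cannot be told apart.

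**Figure D3:**
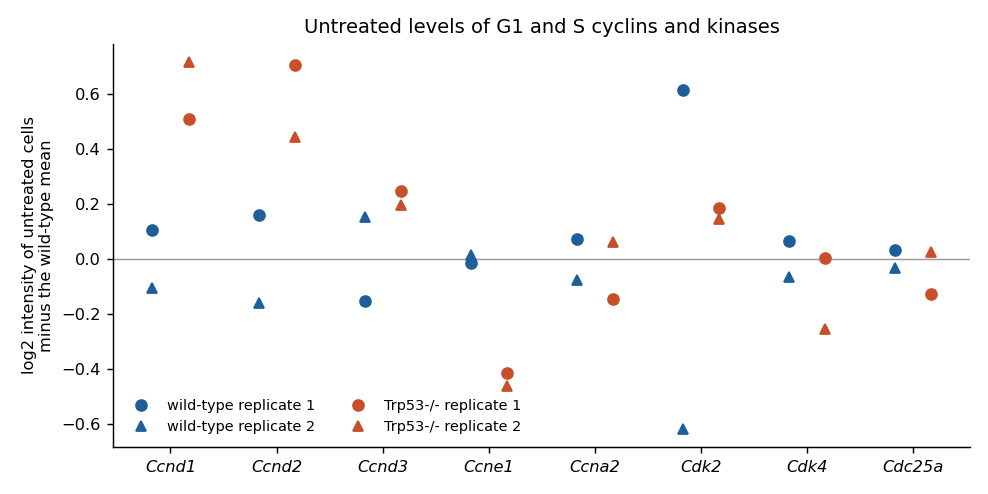
Normalized log2 intensity of untreated cells for the 8 genes tested, minus the wild-type mean of the gene, with 1 point per array (circles replicate 1, triangles replicate 2). Both *Trp53*-/- points lie above both wild-type points for *Ccnd1*, *Ccnd2* and *Ccnd3* and below them for *Ccne1*, and the wild-type points of *Cdk2* are 8.91 and 7.68 before the subtraction.

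Markers of other cells moved with the genotype in the same untreated channels. The summed control intensity of the 4 oligodendrocyte markers lay between 1828 and 3014 in wild-type and between 8495 and 9133 in *Trp53*-/- NSPCs. That of the 3 endothelial markers lay between 8051 and 8462 in wild-type and between 3160 and 3553 in *Trp53*-/- NSPCs, with *Cdh5* not above background on any array. Of 4 astrocyte markers 3 passed as higher in untreated *Trp53*-/- NSPCs, among them *Gfap*, at 6.44 and 7.23 in wild-type and 9.22 and 9.21 in *Trp53*-/- NSPCs and not above background on all 4 arrays, while the summed intensities overlapped (1294 to 2926 against 2624 to 2729). The neuronal *Rbfox3* was higher by 1.24 and the microglial *Csf1r* was lower, at -0.82. The untreated cells also differed by genotype in Y-linked transcripts, with *Eif2s3y* at 8.96 and 8.47 in wild-type and 6.01 and 6.24 in *Trp53*-/- NSPCs, and *Ddx3y* at 8.25 and 8.06 against 6.04 and 6.17. In the untreated comparison these transcripts and the genotype cannot be told apart. The part of the cell makeup in the untreated differences was not tested, and in such bulk samples fewer cells of a type and less RNA per cell cannot be told apart.

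The partners of these genes in the cycle were described by 6 lists with 54 genes, all tested. At a *p* and *q* below 0.05 by limma after loess, 11.2% of all genes were lower and 13.5% higher in wild-type NSPCs. The shares were 10.4% and 12.7% in *Trp53*-/- NSPCs, 0.474% and 1.29% in the difference, and 5.13% and 5.06% in untreated cells. They are to be set beside each count below, and a count near its share is not read as a result of its list. In wild-type NSPCs, 28 of the 54 were lower and 6 higher at a *p* and *q* below 0.05 by limma, with a median of -0.29. Of the same genes in *Trp53*-/- NSPCs 11 were lower and 7 higher, with a median of 0.032, and without replicate 2 there 1 was lower and 5 higher. In the difference 7 were lower in wild-type and 1 higher, with 8 lower without *Trp53*-/- replicate 2 and 0 lower without wild-type replicate 2. With median centring 0 were lower and 23 higher in wild-type, with 35 of 54 genes below the median of all genes, and 0 were lower and 47 higher in *Trp53*-/- NSPCs. Of all 20233 genes, 92 were lower and 12082 higher by median centring in wild-type, and 90 lower and 13781 higher in *Trp53*-/- NSPCs. By the log ratios of the scanner software 8 of 54 were lower and 2 higher in wild-type, beside 660 and 864 of all 20233 genes.

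The genes that license and fire replication origins, which CDK2 and the DBF4-dependent kinase set off, were lower in wild-type for 10 of 13 genes after loess and for 0 of 13 with median centring, where 12 of 13 lay below the median of all genes. Their values in wild-type lay between -0.69 for *Dbf4*, the activator of the kinase CDC7, and -0.061 for *Gmnn*, the gene of the licensing inhibitor geminin, which did not pass. None of the 13 was lower in *Trp53*-/- NSPCs and 2 were higher, *Gmnn* by 0.48 and *Mcm3*, a subunit of the replicative helicase, by 0.39, and without replicate 2 there 1 was higher and without replicate 1 there 0. The difference passed for 5 of 13, all lower in wild-type, *Mcm3* (-0.73, *q* = 0.0233), *Mcm6* (-0.70, *q* = 0.0247), *Mcm7* (-0.61, *q* = 0.0430), *Dbf4* (-0.59, *q* = 0.0487) and *Mcm4* (-0.58, *q* = 0.0446 by limma). The count of 5 was 0 without wild-type replicate 2, 3 and 4 without *Trp53*-/- replicates 1 and 2, 0 with an offset of 16, 1 with no background correction and 2 with Benjamini-Hochberg adjustment.

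The list of mitotic cyclins and their kinase also holds the phosphatase genes *Cdc25b* and *Cdc25c*. After loess 6 of its 6 genes were lower with PJ34 in wild-type and 5 of 6 in *Trp53*-/- NSPCs. With median centring 0 of 6 were lower in either genotype. *Ccnb2*, a B-type cyclin, was the lowest in both, at -0.95 (*q* = 0.00101) in wild-type and -0.75 (*q* = 0.00440 by limma) in *Trp53*-/- NSPCs. The highest in wild-type was *Ccnf* at -0.56, the gene of an F-box protein, and in *Trp53*-/- NSPCs *Cdc25b* at -0.22, which did not pass. Without *Trp53*-/- replicate 2, 1 of 6 passed in that genotype. No difference between genotypes passed, and the values lay between -0.50 for *Cdc25b* and 0.014 for *Ccnf*.

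Among 7 CDK inhibitors, *Cdkn1a* was the single gene of the lists called with the limit of 2-fold after PJ34. Its log2 ratios by the brightest probe were 1.84 and 1.23 in wild-type and -0.48 and -0.74 in *Trp53*-/- NSPCs, and the difference of 2.14 passed (*q* = 0.000576 by limma). A dimmer probe, above background in the control colour on 2 arrays, gave 1.56 and 0.93 in wild-type and 0.042 and 0.071 in *Trp53*-/- NSPCs. Another, above background in that colour on 0 arrays, gave 0.33 and -0.090 against -0.029 and -0.0066. The fall in *Trp53*-/- NSPCs thus rests on the brightest probe. Control levels of the dimmer probes there were 5.99 and 6.00, and 6.04 and 6.01, beside 6.08 and 5.98 for the undetected probe of *Cdk6*. At such levels they could not show a fall. The list had 1 difference higher in wild-type without *Trp53*-/- replicate 2 too. In wild-type 3 of 7 were lower, of which *Cdkn2c*, an inhibitor of CDK4 and CDK6, was the lowest at -0.60, and 2 were higher. Lower in *Trp53*-/- NSPCs were 5 of 7, with 0 higher, and without replicate 2 there 0 were lower. In untreated *Trp53*-/- NSPCs, *Cdkn2a*, *Cdkn2b* and *Cdkn1c* were higher by 3.46, 2.23 and 1.43 on the log2 scale and *Cdkn1a* was lower, at -2.70, and without *Trp53*-/- replicate 2 there 2 of the list were higher and 1 lower.

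Of 13 pocket protein and E2F genes, 4 were lower and 2 higher in wild-type after loess, between -0.55 for *E2f8*, a repressor of E2F targets, and 0.55 for *Rb1*, the gene of the retinoblastoma protein. In *Trp53*-/- NSPCs 1 was lower and 2 were higher, with *Rb1* the highest at 0.45 and *E2f6* the lowest at -0.25, and without replicate 2 there 0 were lower and 2 higher. The difference of *E2f8*, -0.74, passed (*q* = 0.0424 by limma). Of 5 genes of the CDK-activating and the inhibitory kinases, 2 were lower and 1 higher in wild-type, from -0.57 for *Wee1*, which inhibits CDKs by phosphorylation, to 0.32 for *Ccnh*, the cyclin of the activating kinase. In *Trp53*-/- NSPCs *Ccnh* had 0.31 and *Wee1* -0.12, with 1 of 5 higher and 0 lower, and 0 higher without replicate 2. Of 10 genes for the turnover of cyclins and inhibitors, 3 were lower and 1 higher in wild-type, from -0.64 for *Fbxo5*, an inhibitor of the anaphase-promoting complex, to 0.51 for *Btrc*, an F-box protein. In *Trp53*-/- NSPCs 0 were lower and 2 higher, with *Skp2*, which targets p27 for degradation, the highest at 0.46, and the counts were again 0 and 2 without replicate 2. The difference of *Fbxo5*, -0.61, passed (*q* = 0.0446 by limma). For the lists of *E2f8* and *Fbxo5*, each with 1 difference lower in wild-type, this count was 0 without either wild-type replicate, without *Trp53*-/- replicate 1, with an offset of 16, with no background correction and with Benjamini-Hochberg adjustment, and 2 in each without *Trp53*-/- replicate 2. All these counts and signs are those after loess, and with median centring 0 genes of these 3 lists were lower in either genotype.

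**Figure D4:**
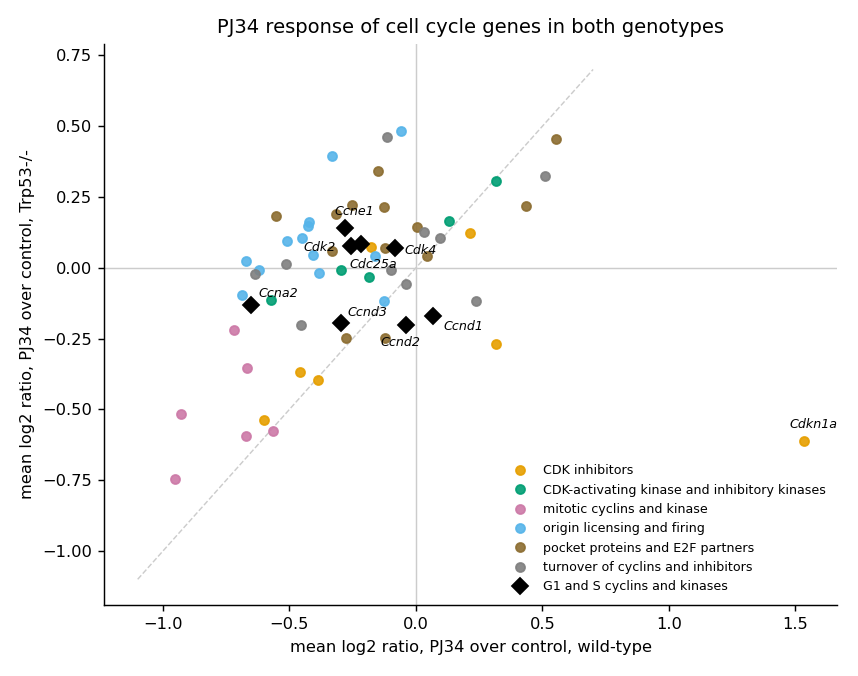
Mean log2 ratio of PJ34 over control after loess in wild-type (horizontal axis) and *Trp53*-/- NSPCs (vertical axis) for the 8 genes tested (black diamonds) and 54 genes of 6 cell cycle lists (coloured points), n = 2 arrays each, with equality dashed. *Ccna2* lies at -0.65 and -0.13, to the left of the dashed line with the origin licensing genes, and *Cdkn1a* at 1.53 and -0.61, and median centring would lift the median of all genes to 0.46 on the horizontal and 0.63 on the vertical axis.

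*Ccna2*, the gene of the set with the largest difference between genotypes, was also set beside all other genes by its pattern over the 4 arrays. The 5 nearest by Euclidean distance of the 4 log2 ratios were *Kif22* (0.145), *Espl1* (0.160), *Mki67* (0.168), *Rrm1* (0.170) and *Ndc80* (0.179). *Kif22* and *Ndc80* act on mitotic chromosomes, *Espl1* encodes separase, *Mki67* the proliferation marker Ki-67 and *Rrm1* a subunit of ribonucleotide reductase. The ratios of *Mki67* were -0.38 and -0.82 in wild-type and 0.16 and -0.21 in *Trp53*-/- NSPCs. This is a description over 4 arrays that share their slides and dyes with *Ccna2*.

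How far the wild-type values moved with the processing was read from refits of the same arrays. With no background correction, an offset of 16, scaling between arrays and the scanner software's log ratios, *Ccna2* stayed between -0.66 and -0.67 and *Cdk2* between -0.27 and -0.39. *Ccna2* had *q* = 0.0622 with the scanner software's log ratios, by which 0 of the 8 genes passed. Between the wild-type arrays, replicate 2 had the lower ratio for all 8 genes by their brightest probes. The share of all genes with this order was not computed, so it is not read as a trait of the set.

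**Figure D5:**
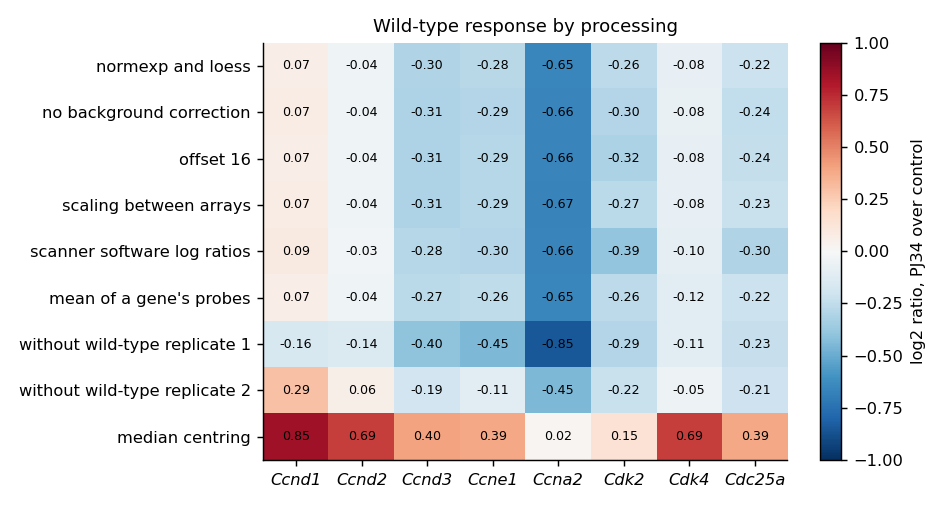
Mean log2 ratio of PJ34 over control in wild-type NSPCs for the 8 genes tested (columns) under 9 ways of processing the arrays (rows), with colour from blue (below 0) to red (above 0) and the value in each cell. *Ccna2* is between -0.45 and -0.85 in all rows but the last, median centring, where it is 0.021 and the median of all genes is 0.46.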

How the data were processed

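The 10 genes, the cell cycle lists and the markers were chosen with earlier results of these data known. The authors scanned the arrays with Feature Extraction 10.7.3.1 and deposited, per array, the intensity of each spot and its local background in both colours, and log10 ratios with processed signals normalized by that software, used here as alternatives. A deposited table with 4 columns named by number only was not used. Probe positions are those of the files (mm9). Symbols came through RefSeq accessions (GRCm38.p6) for 26300 probes and otherwise from the files. No mm9 annotation was used, so exon or UTR is not given.

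Intensities were corrected by normexp with an offset of 50 and normalized by loess within arrays (limma 3.58.1, R 4.3.3), without control and outlier spots (228 to 276 an array). Genes entered when a spot passed the software's background test in either colour on each array of a genotype (20233 genes, 27043 probes). One mean per genotype was fitted over the 4 arrays, with 2 residual degrees of freedom, moderated to 10.4. Untreated levels were control intensities after loess and quantile normalization of mean intensities. Storey's *q* was adjusted over all genes. The fit was tested on simulated ratios. Named outside the set were, per list, genes past 2-fold, the highest and the lowest, and all genes whose difference passed, the last chosen after their values were seen. Alternatives are given with their effect at the end.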

Additional observations from a re-analysis of the deposited data

How the results depend on the processing

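In wild-type NSPCs, 4 genes of the set were lower. This count was 2 with an offset of 16 (*Ccna2* and *Cdk2*), 2 without a filter on dim probes, 1 with Benjamini-Hochberg adjustment, 0 by median centring and 0 by the log ratios of the scanner software. It was 3 with no background correction and 5 with a strict filter, which kept probes above background in both colours on all 4 arrays. Left out in turn, the arrays gave between 1 (without wild-type replicate 2) and 4. With median centring 6 genes were higher in wild-type and 8 in *Trp53*-/- NSPCs, 2 of these over 2-fold, and of all genes called 99.2% and 99.4% were higher, against 54.7% and 54.9% after loess. Of the 20233 genes tested, 12082 and 13781 were called higher by median centring. The log2 values that changed sign in wild-type were 0.021 for *Ccna2*, 0.69 for *Ccnd2*, 0.40 for *Ccnd3*, 0.39 for *Ccne1*, 0.39 for *Cdc25a*, 0.15 for *Cdk2* and 0.69 for *Cdk4*. In *Trp53*-/- NSPCs they were 0.82 for *Ccna2*, 0.96 for *Ccnd1*, 0.85 for *Ccnd2* and 0.79 for *Ccnd3*, and in the difference -0.11 for *Ccnd1* and -0.16 for *Ccnd2*. The cause was not tested. With the mean of a gene's probes, *Ccne1* was at -0.0014 in *Trp53*-/- NSPCs.

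Leaving out each array turned the sign of some small values. In wild-type, *Ccnd1* ranged from -0.16 without replicate 1 to 0.29 without replicate 2, and *Ccnd2* from -0.14 to 0.061. *Ccna2* in *Trp53*-/- NSPCs ranged from -0.30 without replicate 1 to 0.040 without replicate 2, and the difference of *Ccnd3* from -0.21 without wild-type replicate 1 to 0.0020 without wild-type replicate 2. The same refits gave between 0 and 1 differences lower in wild-type. For untreated levels it gave between 0 and 3 higher and between 0 and 2 lower in *Trp53*-/- NSPCs, and a variance trend gave 1 higher (*Ccnd1*, *q* = 0.0400). The untreated difference of *Ccna2* ranged from -0.14 without *Trp53*-/- replicate 2 to 0.062 without *Trp53*-/- replicate 1, with 0.033 without wild-type replicate 1, and was 0.0045 with processed signals. That of *Cdk2* ranged from -0.45 without wild-type replicate 2 to 0.78 without wild-type replicate 1, that of *Cdc25a* from -0.13 without *Trp53*-/- replicate 2 to 0.027 without replicate 1, and that of *Cdk4* from -0.26 without *Trp53*-/- replicate 1 to 0.0025 without replicate 2.

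Replicate numbers occur in both genotypes, but nothing says that a number marks a shared culture, and same-numbered arrays had a correlation of deviations of -0.169 in ratios and 0.074 in control levels. With the replicate number as a block, 2 genes passed lower in wild-type (*Ccna2* and *Ccnd3*). The crossed pairing, added after seeing the data, gave 5 lower in wild-type and 0 in *Trp53*-/- NSPCs and in the difference. Of the counts over the set, 175 were within 1.5 times the reported value under the alternatives and 17 were not. The reported counts of genes passing were 0 except for the 4 genes lower in wild-type. The 175 are thus mostly counts that stayed at 0, and they do not show that the count of 4 was stable. It ranged from 0 with median centring to 5 with the strict filter on dim probes and with the crossed pairing, and remained 4 under scaling between arrays. A slide could not be used as a block, since each array had its own, and with 2 arrays a genotype the precision rests on variances shared over genes.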
